A study of Mus musculus with 22 samples.

Results

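Bladders of mice in which the R270H allele of Trp53 had been recombined by Krt5-CreERT2 were compared with bladders that carried the same allele unrecombined, after the same carcinogen. The comparison takes 6 of the 22 arrays of the study, 3 in each group, chosen by their titles, treatment and genotype entries and not by any measured value. The recombined arrays, called Krt5-Cre R270H 1, 2 and 3, come from mice with Krt5-CreERT2, the Cre reporter LSL-RFP and the Trp53R270H/+ genotype, given tamoxifen. The unrecombined arrays, called Trp53 het 1, 2 and 3, are titled Trp53+/-. Their genotype entry reads Trp53R270H/+, it names no Cre and no reporter, and they had no tamoxifen. Both groups drank BBN, a nitrosamine that induces bladder carcinoma, for 24 weeks and were 8 months old. A second control, Krt5-Cre 1 and 2, had Krt5-CreERT2, LSL-RFP, tamoxifen and the same BBN course, and no R270H allele. Each array read RNA from a whole bladder, labelled as bladder tumor, on 1-colour Agilent arrays. Recombination, Cre, reporter and tamoxifen therefore differ together between the main groups and cannot be told apart from each other. Sex differs in the labels too: Krt5-Cre R270H 1 is labelled female and the other 5 arrays male. Krt5 drives CreERT2 in basal urothelial cells. Which other bladder cells carried the recombined allele was not measured, and no array gives the share of cells that had recombined.

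p53 is a transcription factor that halts the cell cycle or starts apoptosis after DNA damage. It binds response elements made of adjacent half-sites near genes such as Cdkn1a, which encodes the cell-cycle inhibitor p21. R270H changes an arginine of the DNA-binding domain that touches DNA, and the mutant protein is known to lose most of this binding. The allele is built with a transcriptional stop between lox sites, so that it is silent until Cre removes the stop, which leaves 1 working copy of Trp53. After recombination, a cell carries a wild-type and a mutant copy. The comparison asks what the mutant copy, switched on in basal cells, adds to a bladder that otherwise has a single working Trp53 gene. BBN tumors of mice are known for basal and squamous features.

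The binding site that R270H is known to affect can be read in the promoters of its targets, and 2 such windows are printed for that reason. Each is the 250 bases before an annotated gene start in RefSeq on GRCm38.p6, 5′ to 3′ on the strand of the gene, with the response element in capitals.
Cdkn1a: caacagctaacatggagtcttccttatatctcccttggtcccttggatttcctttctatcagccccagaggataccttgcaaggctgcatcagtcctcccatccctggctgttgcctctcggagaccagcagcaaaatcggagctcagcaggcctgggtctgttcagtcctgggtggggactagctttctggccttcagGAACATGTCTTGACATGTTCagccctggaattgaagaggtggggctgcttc
Rps27l: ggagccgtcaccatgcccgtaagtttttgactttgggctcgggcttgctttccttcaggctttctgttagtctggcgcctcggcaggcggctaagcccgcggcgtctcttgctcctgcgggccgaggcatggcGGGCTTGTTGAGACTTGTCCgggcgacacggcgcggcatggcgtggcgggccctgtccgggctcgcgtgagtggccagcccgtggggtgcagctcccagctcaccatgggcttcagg
The Cdkn1a window is chr17:29090729-29090978 on the plus strand, directly upstream of the annotated gene (29090979 to 29100722), and its element starts 51 bases before that start. The Rps27l window is chr9:66946163-66946412 on the plus strand, before a start inside the annotated gene (66944624 to 66949522), and its element starts 117 bases before that start. Rps27l encodes a ribosomal protein-like p53 target. The search was for the p53 response element, a pair of adjacent half-sites with no spacer on both strands (the pattern is its own reverse complement). The core of each half-site was kept and 1 mismatch was allowed elsewhere, a setting chosen after the Cdkn1a window had been seen. Of the 38 p53 target genes tested, 29 had windows in the table and 2 of these genes held the element, against 0.0437% of the genes tested that had a window and 0.0555% of all genes in the table. A match is a description of these letters, and most known elements lie outside such windows.

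The Krt5-Cre R270H arrays resembled each other no more than they resembled the Trp53 het arrays, while 2 of the 3 Trp53 het pairs were closer than any pair between the groups. Over 17404 genes, the Pearson correlation between array pairs was 0.899 to 0.926 within Krt5-Cre R270H, 0.920 to 0.954 within Trp53 het, and 0.916 to 0.951 between them. Between 47.0% and 63.2% of spots were well above background. The highest share was on Trp53 het 1, the single array of the 6 read on the other scanner model. Slide 1 held 2 arrays of each group, Krt5-Cre R270H 1 and 2 and Trp53 het 2 and 3. Krt5-Cre R270H 3 was on slide 2 and had the most flagged spots, 301 against 53 to 114 on the other arrays compared. Trp53 het 1 and 2 carry the same code in their description, so they may come from the same mouse, and their correlation (0.920) was the lowest of the group. Trp53 het 3, labelled male, had Xist well above background and 0 of 4 Y-linked genes, which goes against its label. Krt5-Cre R270H 1, labelled female, had the same pattern, and the other 4 arrays had 3 or 4 of the 4 Y-linked genes. Of 8 urothelial markers (uroplakins and keratins), 7 were well above background on all 6 arrays, and Upk3a on 2 arrays of each group. The number of arrays limits the precision of every value here. The codes of the 3 Krt5-Cre R270H arrays differ, but the labels do not say that a code is a mouse. The p-values thus measure spread between arrays, which may be technical. In the main fit that spread is pooled over every group of the study and not taken from the 6 arrays alone.

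Of 17404 genes tested, 0 (0%) passed an adjusted p of 0.05 between Krt5-Cre R270H and Trp53 het (limma with Benjamini-Hochberg adjustment). The smallest adjusted p was 0.990. At an unadjusted limma p under 0.05 there were 847 genes (4.87%), of which 461 (2.65%) had the higher mean in Krt5-Cre R270H and 386 (2.22%) the lower. The 3 arrays of one group lay apart from the 3 of the other for 968 genes (5.56%), 464 above (2.67%) and 504 below (2.9%). The median difference over all genes was -0.02 on the log2 scale, on which every difference here is given as Krt5-Cre R270H minus Trp53 het and 1 means a doubling. The fit could place a typical gene's difference to within 0.935 on either side (median 95% interval). The median SD between arrays was 0.680 in Krt5-Cre R270H and 0.481 in Trp53 het, and 64.6% of genes had the larger SD in Krt5-Cre R270H. A level is a probe's log2 signal after subtracting the 75th percentile of its own array.

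**Figure D1:**
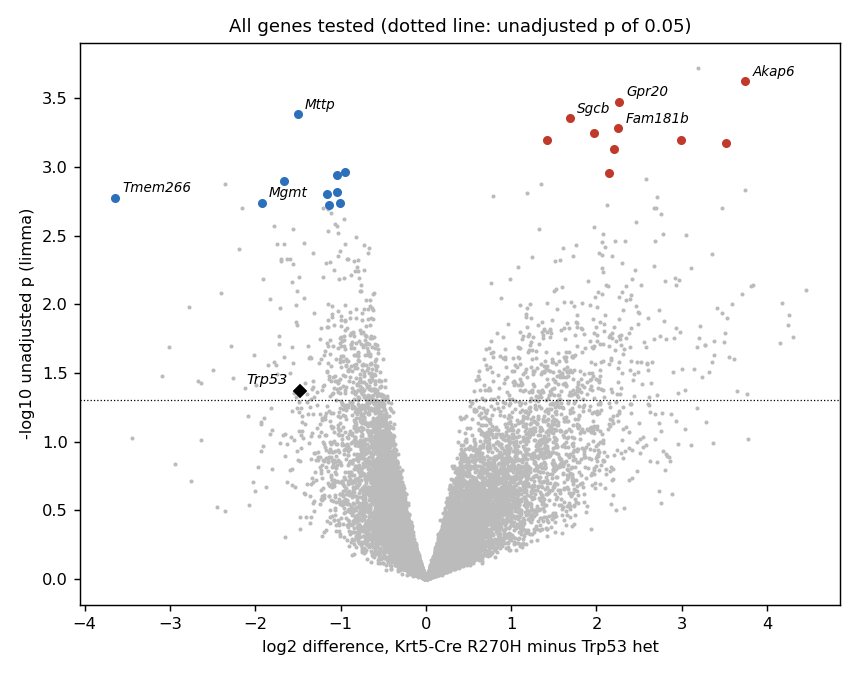
Each point is 1 of the 17404 genes, with its log2 difference (Krt5-Cre R270H minus Trp53 het) on the x axis and the -log10 of its unadjusted limma p on the y axis; the 20 coloured points are the genes of smallest p in each direction with a standard symbol, and the diamond is Trp53. No gene passed the adjusted threshold, and Trp53 at -1.47 lies just above the dotted line at an unadjusted p of 0.05.

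Trp53 itself, on chromosome 11, read lower on the arrays with the recombined allele. Its level was -1.46, -0.44 and -0.48 on Krt5-Cre R270H 1, 2 and 3, and -0.42, 1.62 and 0.84 on Trp53 het 1, 2 and 3. The groups did not overlap, by a margin of rounding: the nearest arrays read -0.44 and -0.42. The difference was -1.47 (SE 0.672, 95% interval -2.89 to -0.05, unadjusted limma p 0.0429), and it did not pass after adjustment. The 1 probe that stands for Trp53 does not separate the mutant from the wild-type transcript, so the level is the sum of what both copies give. The difference stayed below 0 under all 22 alternatives, from -2.18 within slide 1 to -1.0 without Trp53 het 2. Its unadjusted limma p was highest, 0.232, without the 2 arrays that had Xist and no Y-linked gene (-1.06). On Krt5-Cre 1 and 2, which carry no R270H allele, Trp53 read -0.08 and 0.80.

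Cdkn1a, whose promoter is printed above, had overlapping levels: 1.14, 3.38 and 2.16 on Krt5-Cre R270H 1, 2 and 3 against 1.32, 2.90 and 1.98 on Trp53 het 1, 2 and 3. Array 2 was the highest in both groups and array 1 the lowest. The difference was 0.16 (95% interval -1.07 to 1.39). Its sign turned with the slide, the scanner or the first part of the sample code as a block, within slide 1, and without Krt5-Cre R270H 2 or Trp53 het 1, so Cdkn1a has no settled direction here. A second Cdkn1a probe gave -0.02. Rps27l read 5.37, 4.65 and 5.43 against 4.89, 5.10 and 5.48, a difference of -0.0039 with an interval of -0.72 to 0.71.

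**Figure D2:**
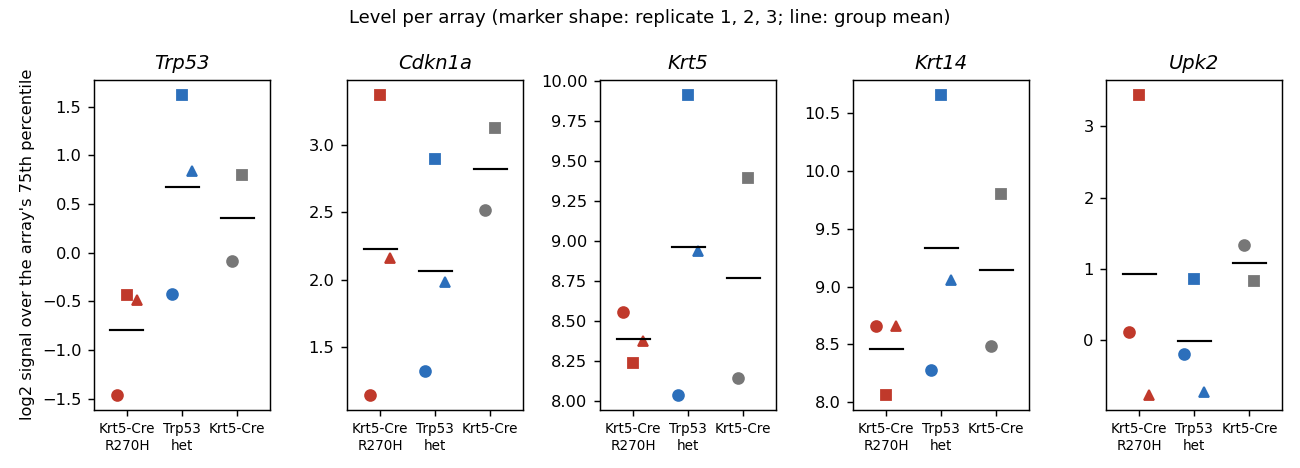
Level per array (log2 signal over the array's 75th percentile, separate y axis per panel) of Trp53, Cdkn1a, Krt5, Krt14 and Upk2 in Krt5-Cre R270H (red), Trp53 het (blue) and Krt5-Cre (grey); marker shapes are replicates 1, 2 and 3 and lines are group means. The Trp53 groups touch at -0.44 and -0.42, and the other 4 genes overlap between the main groups.

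The wider set of genes that p53 activates showed no common direction. Of the 38 members tested, 0 passed the adjusted threshold, 1 had an unadjusted p under 0.05, and none had groups that lay apart. 17 members had a difference above 0, against 47.8% of all genes, 21 had one below 0, against 52.2%, and the median was -0.05 beside -0.02 over all genes. The lowest difference was -1.02 and the highest 0.98. For 37 of 38 members the 95% interval held 0, and the intervals reached 0.505 to 1.86 on either side. These widths are no limit of detection. With 3 arrays a group, larger differences could be missed too: Akap6, at 3.74, did not pass the adjusted threshold. The 4 members of smallest p were all lower. Aen, a nuclease of apoptosis, read 3.42, 3.31 and 3.91 against 3.76, 4.28 and 4.39, a difference of -0.59 (unadjusted limma p 0.0363). Phlda3, which restrains Akt, read 6.09, 5.06 and 6.14 against 5.78, 6.67 and 7.0, a difference of -0.72. Bbc3, which encodes the death protein PUMA, differed by -0.55, and Zmat3, an RNA-binding protein, by -0.69. Each of these groups overlapped, and Zmat3 on Krt5-Cre R270H 3 (1.52) was above every Trp53 het array (0.77 to 1.13).

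**Figure D3:**
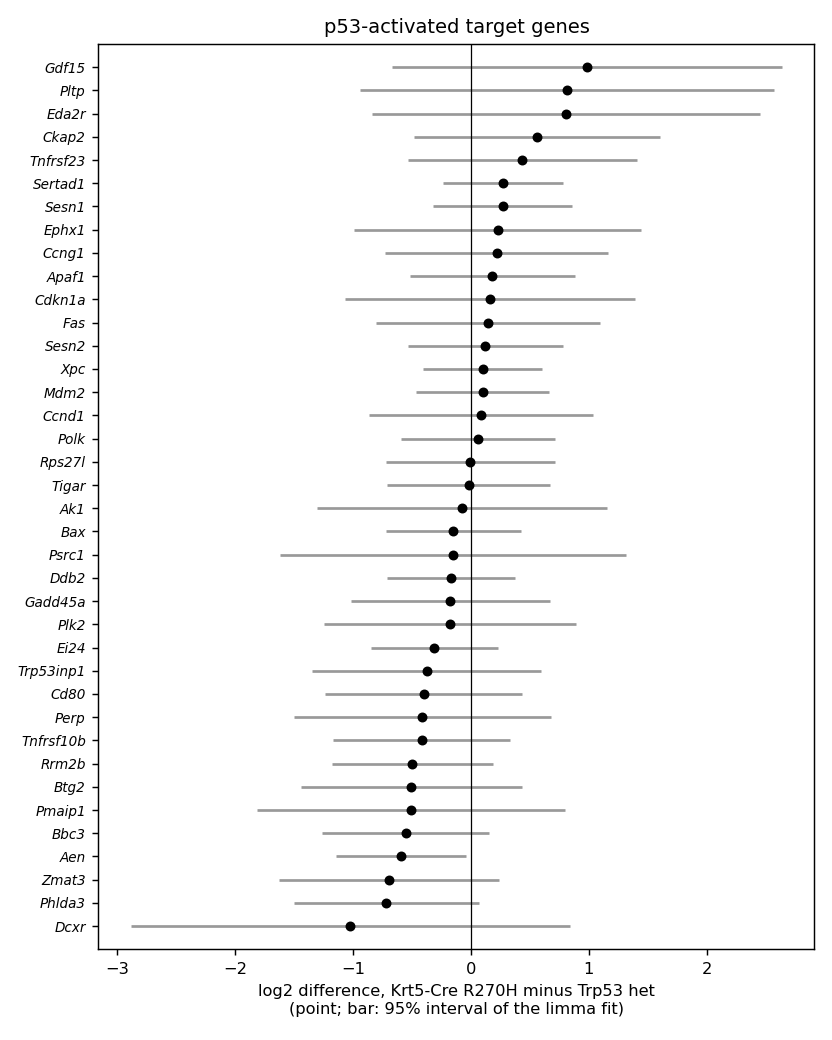
Log2 difference (Krt5-Cre R270H minus Trp53 het) of the 38 p53-activated genes tested, with the 95% interval of the limma fit as a bar. The differences run from -1.02 to 0.98 and 37 of the 38 intervals hold 0; Aen is the exception.

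Among 28 p53 regulators and relatives, a list that includes Trp53, 9 were above 0 and the median was -0.10. Trp53 was the 1 member with an unadjusted p under 0.05 and the 1 whose groups lay apart. Trp63, the family member that specifies basal epithelium, read 3.26, 1.30 and 3.37 against 3.19, 3.19 and 3.56. Its difference of -0.67 rested on Krt5-Cre R270H 2 and was 0.0068 without that array. Trp73, the other relative, differed by -1.11 with Krt5-Cre R270H 2 again lowest (-3.46). Of 22 genes beside Trp53 on chromosome 11, 12 were above 0 with a median of 0.17. 2 had an unadjusted limma p under 0.05, both higher, opposite to Trp53 (2.65% of all genes): Atp1b2, a sodium pump subunit (2.05), and Efnb3, an ephrin ligand (1.24). The groups overlapped for both. Atp1b2 was well above background on 3 Krt5-Cre R270H and 2 Trp53 het arrays, and Efnb3 on 2 and 1. With only genes well above background on all 6 arrays, the list median was -0.09. Of 24 genes of the mevalonate pathway, through which some p53 mutants are reported to act, 13 were above 0, the median was 0.13 and none had an unadjusted p under 0.05. Insig1, a brake on sterol synthesis, differed by 0.61 with an unadjusted limma p above 0.05.

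The genes of smallest p are named by rule, 10 in each direction with predicted genes, RIKEN and clone names skipped (Gm525, with the smallest p of all, is such a name and is given further on), and none of them passed the adjusted threshold. All 20 had groups that lay apart, against 5.56% of all genes. They were chosen by small p on these same arrays, so the separation is no further evidence. In the higher direction, Akap6, an anchor for protein kinase A in muscle and nerve, read -0.84, -1.62 and -2.08 against -4.82, -5.13 and -5.82. The difference was 3.74 (95% interval 2.04 to 5.44, unadjusted limma p 0.00024), with the gene well above background on all 3 Krt5-Cre R270H arrays and 1 Trp53 het array. A second Akap6 probe gave 1.86. Rab6b, a Golgi transport GTPase, read -0.17, -0.34 and 0.55 against -1.87, -5.31 and -3.34 (3.52). These Trp53 het values spread over more than 3 units, and 1 of the 3 arrays was not well above background. Sgcb, a sarcoglycan of the muscle membrane complex, was measured on all 6 arrays and read 0.61, -0.75 and 0.65 against -1.40, -1.90 and -1.24 (1.69). Rapgef3, a cAMP-activated exchange factor known as Epac, was the tightest: 1.73, 1.62 and 1.80 against 0.12, -0.83 and -0.05 (1.97). The remaining 6 were Wfikkn2, an inhibitor of myostatin (3.0), Gpr20, an orphan receptor (2.27), Fam181b (2.26), Klhdc9 (2.21), Pwwp3b (2.14) and Wasf1, an actin regulator (1.41). Of these, Wasf1 was the 1 that was well above background on all 6 arrays. With normexp background, Akap6 was 1.35, Rab6b 1.80, Wfikkn2 1.0, Gpr20 0.79, Fam181b 0.75, Klhdc9 0.75, Pwwp3b 0.93 and Wasf1 0.74, so the sizes of these 8 differences depend on how dim signals are treated. Smooth muscle markers read higher on Krt5-Cre R270H 1 and 2 but not on replicate 3 (list scores below), and their part in these differences was not tested.

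In the lower direction, Mgmt, the enzyme that removes alkyl groups from guanine in DNA, read -0.09, 1.59 and 0.78 against 3.41, 2.23 and 2.42. The difference was -1.92 (95% interval -3.02 to -0.83, unadjusted limma p 0.00182), and the nearest arrays were 1.59 and 2.23. On Krt5-Cre 1 and 2, Mgmt read 2.01 and 1.90. Fat2, an atypical cadherin of squamous epithelium, read 1.0, 1.36 and 2.70 against 2.91, 3.17 and 3.98 (-1.66). Ehf, an epithelial transcription factor of the ETS family, read 3.35, 2.63 and 3.82 against 4.36, 4.42 and 4.51 (-1.16). 3 further Ehf probes gave -0.73 to -1.12. Mttp, a lipid transfer protein, read -4.04, -4.0 and -3.79 against -2.96, -1.97 and -2.39 (-1.51), with 1 of 3 Krt5-Cre R270H arrays well above background. With normexp background Mttp differed by -0.49. Tmem266, a membrane protein with a voltage sensor domain, was well above background on all 3 Trp53 het arrays and on no Krt5-Cre R270H array, so it has a bound: at least 3.83-fold lower (limma adjusted p 0.990). With normexp background its log2 difference was -0.98, so this bound holds only for the main background treatment. The other 5 were Ank, a pyrophosphate transporter (-1.13), Hps1, of lysosome-related organelles (-1.05), Eml3, a microtubule protein (-1.04), Bcl7a, of the SWI/SNF complex (-1.0), and Sirt4, a mitochondrial sirtuin (-0.95). All of these were measured on all 6 arrays.

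Few genes were measured in a single group. 4 genes (0.023%) were well above background on all 3 Krt5-Cre R270H arrays and no Trp53 het array: Gm525, Kcnj12, Mup4 and Plaat1, named after their values were seen. Their bounds were at least 3.05-fold, 2.96-fold, 4.34-fold and 2.28-fold higher, with adjusted p of 0.990 each. A bound sets the bright group's mean against the dimmest signal well above background on each array of the other group, or the probe's own signal where that is higher. With normexp background the log2 differences of Gm525, Kcnj12, Mup4 and Plaat1 were 0.91, 1.02, 1.43 and 0.75. Their bounds thus hold only for the main background treatment. Kcnj12 encodes an inward-rectifier potassium channel. Mup4 belongs to a family of near-identical genes, so its identity is uncertain. The reverse pattern held for 6 genes (0.0345%), with the highest bound for Cd200r2, also named after its value was seen, at least 4.51-fold lower, and Tmem266 next. With array weights the log2 difference of Cd200r2 was -1.03.

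Smooth muscle genes gave the highest share of small p-values of the lists described. All 16 members had a difference above 0, the median was 1.65, and 8 of 16 had an unadjusted limma p under 0.05 in the higher direction, against 2.65% of all genes. None passed after adjustment (smallest adjusted p 0.990). The groups lay apart for 4 of 16, against 2.67% of all genes in this direction. These were Synm, Casq2, Actg2 and Actc1, the last 3 named after their values were seen. Synm, an intermediate filament protein, read 3.96, 3.76 and 1.23 against 0.78, 0.24 and 0.79 (2.38). Krt5-Cre R270H 3 was the low array there, near the Trp53 het values. Actg2, the enteric smooth muscle actin, read 3.70, 5.95 and 3.92 against 3.57, 2.33 and 2.76 (1.64). Casq2, a calcium store protein, differed by 1.66, and Actc1, cardiac actin, by 1.64. Synpo2 (2.25), Lmod1 (2.15) and Smtn (1.24), all actin-binding proteins, overlapped, with Krt5-Cre R270H 3 among the Trp53 het arrays. Lmod1 was well above background on 2 Krt5-Cre R270H arrays and 1 Trp53 het array, and was 0.87 with normexp background. In a whole bladder, more muscle cells and more RNA per muscle cell cannot be told apart.

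The recombined arrays differed among themselves in these genes. Replicates 1 and 2 were on slide 1 and replicate 3 on slide 2, so bladder and slide cannot be told apart in this split. The same holds wherever replicate 3 is set against replicates 1 and 2 below. On Krt5-Cre R270H 1 and on Krt5-Cre R270H 2, all 16 smooth muscle genes were above every Trp53 het array (30.7% and 26.6% of all genes). On Krt5-Cre R270H 3, 4 of 16 were above every Trp53 het array (24.7% of all genes) and 3 were below every one (21.3% of all genes). The counts on replicate 3 were thus near the shares over all genes. The list score, the mean deviation of the members from the 22-array mean, was 1.63, 2.42 and -0.08 on Krt5-Cre R270H 1, 2 and 3 and -0.13, -0.71 and -0.26 on Trp53 het 1, 2 and 3. These scores did not overlap, yet -0.08 and -0.13 are neighbours. The second control was high too: Krt5-Cre 1 and 2 scored 2.86 and 0.75, and the median difference of the list against them was -0.49. The list median was 0.98 without Krt5-Cre R270H 2 and 0.60 with array weights.

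**Figure D4:**
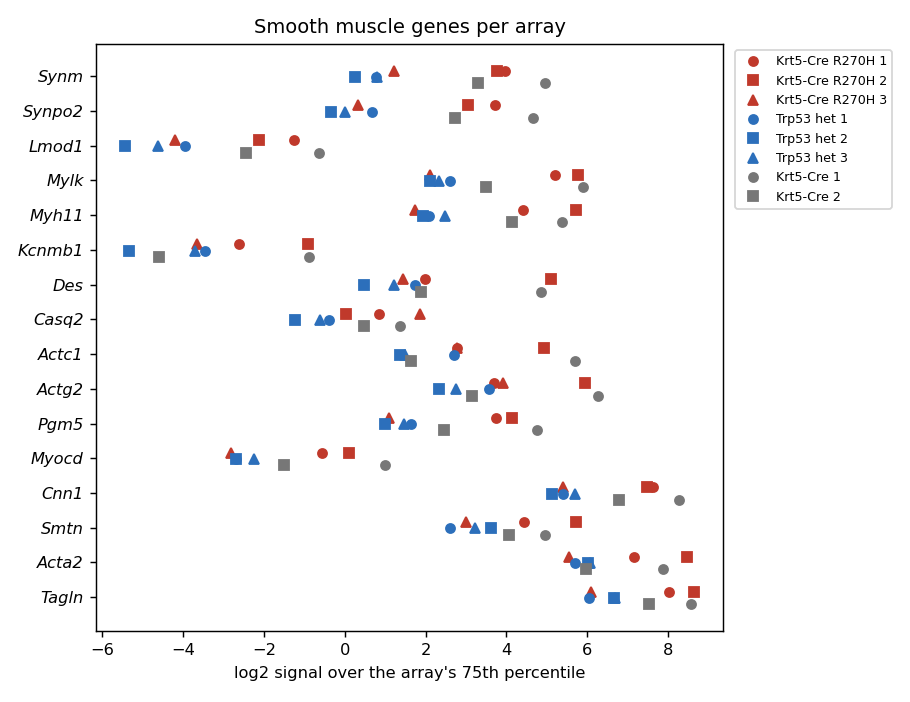
Level per array (x axis, log2 signal over the array's 75th percentile) of the 16 smooth muscle genes on the Krt5-Cre R270H (red), Trp53 het (blue) and Krt5-Cre (grey) arrays; marker shapes are replicates. Krt5-Cre R270H 1 and 2 lie above the 3 Trp53 het arrays for all 16 genes, while replicate 3 lies among them for most.

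Skeletal muscle, adipocyte and nerve lists were also highest on Krt5-Cre R270H 1 and 2. Of the recombined arrays, Krt5-Cre R270H 2 alone was high for the fibroblast and endothelial lists. Of 11 skeletal muscle genes 9 were above 0 with a median of 1.99, and Acta1, skeletal actin, had groups that lay apart (1.48, 3.21 and 1.28 against 0.83, -0.45 and -0.39). All 10 adipocyte genes were above 0, with a median of 1.37, scores of 3.28 and 2.23 on Krt5-Cre R270H 1 and 2 and -0.56 on replicate 3. Plin4, a lipid droplet coat protein, showed this split: 3.05, 2.38 and -1.38 against -0.82, -0.62 and -1.01. Of 11 nerve and Schwann cell genes 10 were above 0 with a median of 0.74. Among them Uchl1, a neuronal ubiquitin hydrolase, had groups that lay apart (1.93, 1.72 and 0.98 against 0.75, -0.50 and 0.38, difference 1.33, unadjusted limma p 0.00282), and S100b, a Schwann cell marker, differed by 2.5 with overlap. Well above background on all 6 arrays were 4 of the 11 skeletal muscle, 3 of the 10 adipocyte and 5 of the 11 nerve genes. Most members of each of these lists were thus dim on some array. With normexp background S100b was 1.0. Fibroblast genes (14 of 16 above 0, median 0.82) and endothelial genes (15 of 15 above 0, median 0.86) scored 1.41 and 1.92 on Krt5-Cre R270H 2, against -0.01 and -0.35 on replicate 1 and -0.23 and -0.32 on replicate 3. On Trp53 het 1, 2 and 3 fibroblast genes scored 0.43, -1.34 and -0.58, and endothelial genes 0.23, -1.43 and -0.57. Trp53 het 1 thus scored above Krt5-Cre R270H 1 and 3 on both lists, and Trp53 het 2 was the lowest of the 6 arrays. Of the 15 endothelial genes, 15 were above every Trp53 het array on Krt5-Cre R270H 2, 5 on replicate 1 and 1 on replicate 3. Without Krt5-Cre R270H 2 the endothelial median was 0.25 and the fibroblast median 0.23, and with array weights the fibroblast median was 0.19. Cd34, a surface protein of endothelium and fibroblasts, read 4.64, 4.56 and 3.33 against 3.21, 1.48 and 2.72 (1.71), and Kdr, the VEGF receptor, 0.93, 2.82 and 0.86 against 0.77, -0.96 and 0.16 (1.55), both with groups that lay apart. Gsn, an actin-severing protein, was the other of 16 fibroblast genes whose groups lay apart (0.43). Dpt, a matrix protein, differed by 2.53 with overlap, and Emcn, an endothelial sialomucin, by 1.44. Dpt was well above background on 3 Krt5-Cre R270H arrays and 1 Trp53 het array, and was 0.89 with normexp background. Of all genes tested, 26.6% were above every Trp53 het array on Krt5-Cre R270H 2, 30.7% on replicate 1 and 24.7% on replicate 3, and 35.8%, 25.6% and 21.3% were below every one. The 3 Krt5-Cre R270H arrays all lay above the 3 Trp53 het arrays for 2.67% of all genes.

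Lymphocyte genes had the next highest share of small p-values. Of 24 tested, 22 were above 0, the median was 0.95, 6 had an unadjusted limma p under 0.05 in the higher direction (2.65% of all genes) and 3 had groups that lay apart (2.67% of all genes). Of the 24, 9 were well above background on all 6 arrays. Ms4a1, the B-cell antigen CD20, read -3.78, -2.39 and 0.57 against -5.48, -5.34 and -6.0 (3.74, unadjusted limma p 0.00146), well above background on 2 Krt5-Cre R270H arrays and 1 Trp53 het array. With normexp background its difference was 1.31. Cd5, a T-cell and B-cell receptor protein, read 0.19, -0.81 and 0.19 against -2.04, -1.40 and -2.78 (1.93). Foxp3, the factor of regulatory T cells, read -3.05, -2.57 and -3.27 against -3.95, -3.55 and -3.65 (0.75). Jchain, of secreted antibody, had the widest spread: -0.77, 3.35 and -2.18 against -0.23, -4.61 and -6.05. The list scores were 1.79, 1.78 and -0.01 against -0.12, 0.85 and -0.52, so that Krt5-Cre R270H 3 again lay among the Trp53 het arrays. The list median was 0.13 without the 2 arrays that had Xist and no Y-linked gene, 1 from each group. Macrophage genes (12 of 19 above 0, median 0.24) and neutrophil and inflammation genes (13 of 27, median -0.05) had no member with an unadjusted p under 0.05. Il6, an inflammatory cytokine, differed by 1.78 with overlap, and Csf3r, the neutrophil growth factor receptor, was the 1 neutrophil gene whose groups lay apart (-0.65).

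**Figure D5:**
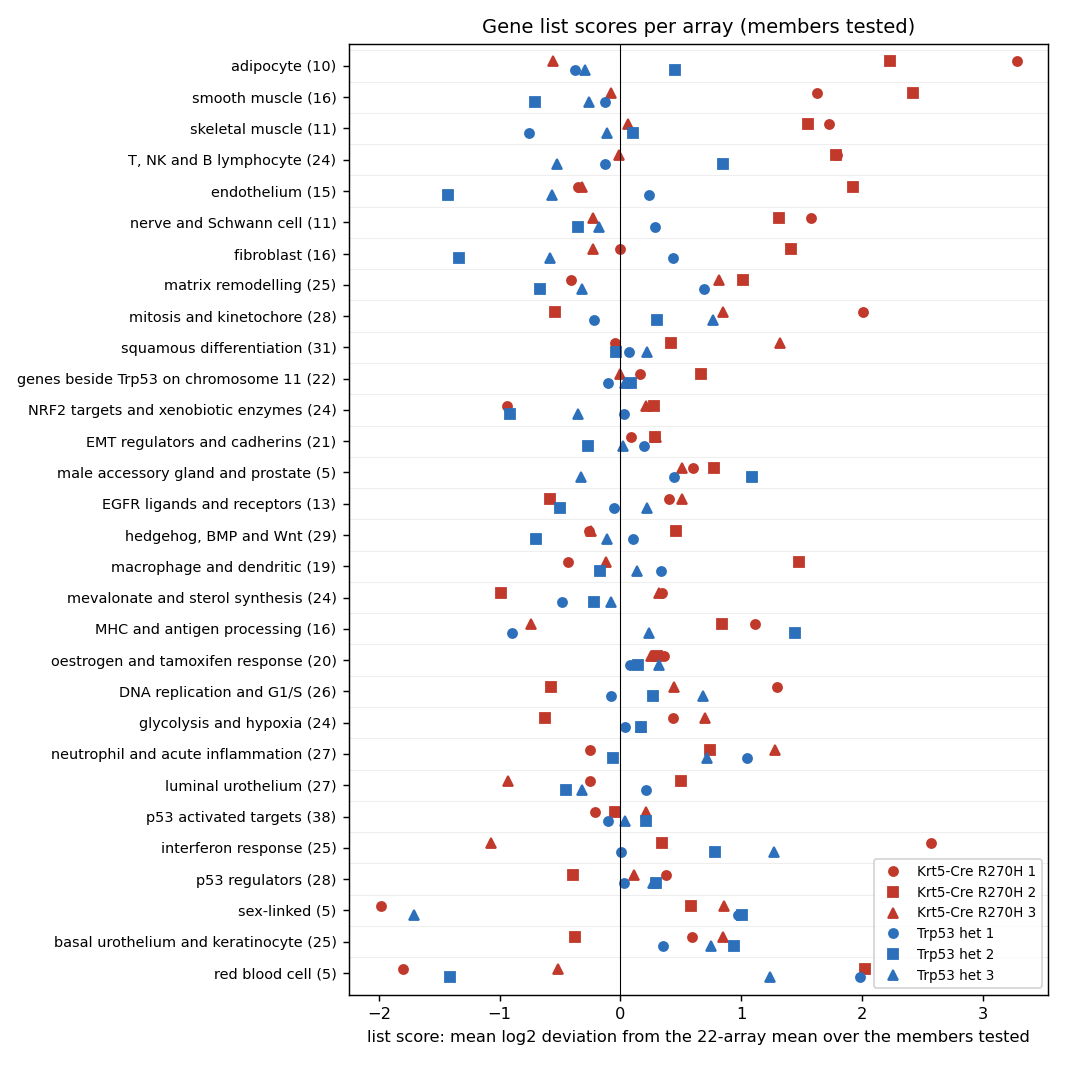
List score per array (x axis, mean log2 deviation of the members tested from the 22-array mean) for 30 gene lists, with the number of members in brackets, in Krt5-Cre R270H (red) and Trp53 het (blue); marker shapes are replicates. Krt5-Cre R270H 1 and 2 are high and replicate 3 low for smooth muscle (1.63, 2.42 and -0.08) and adipocyte genes (3.28, 2.23 and -0.56), while mitosis and interferon genes are highest on replicate 1 (2.01 and 2.57).

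The recombined arrays also differed from each other in genes of proliferation, and proliferation itself was not measured. All 28 mitosis and kinetochore genes had a difference above 0, with a median of 0.48, yet none had an unadjusted p under 0.05 and none had groups that lay apart. The 28 genes were all above every Trp53 het array on Krt5-Cre R270H 1 (30.7% of all genes). On Krt5-Cre R270H 2, 18 of the 28 were below every Trp53 het array (35.8% of all genes). Cdk1, the mitotic kinase, read 1.65, -1.02 and 0.91 against -0.90, -1.16 and 0.11 (1.16). Top2a, the topoisomerase of dividing cells, read 4.08, 1.40 and 2.75 against 1.54, 1.98 and 2.40 (0.77). Plk1 (0.80), a mitotic kinase, and Kif2c (0.91), a kinetochore motor, had the same order within the recombined group, but a second Kif2c probe gave -0.50. Without Krt5-Cre R270H 1 the list median was -0.19. Krt5-Cre R270H 2, the low array here, had the highest smooth muscle, fibroblast and endothelial scores of the recombined arrays. The part of the cell mixture in the mitosis values was not tested. DNA replication genes had a median of 0.08. Of these, 21 of 26 were above every Trp53 het array on Krt5-Cre R270H 1 (30.7% of all genes). On Krt5-Cre R270H 2, 19 of 26 were below every one (35.8% of all genes). Interferon response genes also differed between the recombined arrays: 20 of 25 were above every Trp53 het array on Krt5-Cre R270H 1 (30.7% of all genes), and 21 of 25 were below every one on Krt5-Cre R270H 3 (21.3% of all genes). Oas1a, an antiviral enzyme, read 5.25, 3.52 and 2.74 against 4.64, 3.97 and 6.18. The interferon list median was -0.30, and it moved between -1.48 with array weights and 1.66 with the first part of the sample code as a block.

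Basal urothelial genes were abundant in both groups. Krt5, the keratin whose promoter drives the Cre, read 8.56, 8.24 and 8.37 against 8.04, 9.91 and 8.94 (-0.57, 95% interval -1.57 to 0.42). Krt14, a keratin of basal and squamous cells, read 8.66, 8.07 and 8.66 against 8.28, 10.66 and 9.05 (-0.87). Both were highest on Trp53 het 2 and lowest or next to lowest on Trp53 het 1. Of 25 basal genes 7 were above 0, the median was -0.40 and none had an unadjusted p under 0.05. On Krt5-Cre R270H 2, 18 of 25 were below every Trp53 het array (35.8% of all genes), and without that array the median was 0.12. Krt15 differed by -1.37 and Dst, a hemidesmosome protein, by -1.01, both with overlap, but the other 3 Dst probes gave 0.32, 0.20 and -0.17.

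Luminal genes held members with small p-values in both directions. Of 27 tested, 1 had an unadjusted limma p under 0.05 in the higher direction (2.65% of all genes) and 2 in the lower (2.22%). Upk2, a uroplakin of the urothelial surface, read 0.12, 3.44 and -0.77 against -0.20, 0.86 and -0.73 (0.95), and its difference was -0.31 without Krt5-Cre R270H 2. Tbx3, a transcription factor of urothelium and its mesenchyme, read 3.45, 3.10 and 2.64 against 4.09, 4.04 and 4.51 (-1.15, unadjusted limma p 0.00203). Grhl2, a factor that maintains epithelial junctions, read 2.48, 1.15 and 2.21 against 2.66, 2.76 and 3.06 (-0.88). Sema5a, named after its value was seen, was the third of 27 luminal genes below in every array (-0.93), against 2.9% of all genes. Cyp4b1, a lung and bladder cytochrome P450, was the 1 luminal gene above in every array (2.76), against 2.67% of all genes. It was well above background on 2 Krt5-Cre R270H arrays and 1 Trp53 het array, and was 1.05 with normexp background. Klf5, an epithelial factor, differed by -0.54 with overlap. The list as a whole had 9 of 27 above 0 and a median of -0.28. Among EMT genes (median 0.24), E-cadherin, Cdh1, read 3.25, 2.56 and 3.45 against 3.92, 3.82 and 3.61 (-0.69), and Ovol1, an epithelial repressor, -0.96, -0.59 and -0.62 against -1.73, -1.67 and -1.40 (0.88).

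Squamous genes lay apart more often than they reached a small p. Of 31 tested, 17 were above 0, the median was 0.55, none had an unadjusted p under 0.05, and 5 (against 2.67% of all genes) had every Krt5-Cre R270H array above every Trp53 het array. Sprr1a, a cornified envelope precursor, read 6.81, 7.5 and 6.59 against 6.4, 5.38 and 6.03 (1.03). Sbsn, a secreted keratinocyte protein, read 5.08, 4.53 and 4.21 against 2.37, 2.92 and 2.78 (1.92). The p-values draw on the spread within every group of the study. The SD of Sbsn was 0.44 in Krt5-Cre R270H, 0.29 in Trp53 het and 3.14 in Krt5-Cre R172H. The other 3, named after their values were seen, were Lce3c (2.33), Cnfn (1.62) and Krt78 (0.75). With slide as a block these differences were 0.055, 0.071 and -0.18, and that of Sbsn was 0.61. Against Krt5-Cre 1 and 2 the same list had a median of -1.37, and the sign against Trp53 het turned with slide as a block (-0.64), the scanner as a block (-0.30), the code block (-0.24), the deposited table (-0.07), within slide 1 (-0.07) and without Krt5-Cre R270H 3 (-0.16). The squamous list thus had no settled direction.

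Secreted factors and matrix enzymes included some of the smaller p-values. Wnt5a, a non-canonical Wnt ligand, read 1.78, 1.42 and 1.52 against 2.12, 3.35 and 3.23 (-1.33, 95% interval -2.17 to -0.48, unadjusted limma p 0.00421). It was the 1 gene of the hedgehog, BMP and Wnt list (29 genes, median 0.28) with an unadjusted limma p under 0.05. Bmp7, a BMP ligand, was the other whose groups lay apart (-0.74), against 2.9% of all genes in this direction. Of 25 matrix genes 19 were above 0 (47.8% of all genes) with a median of 0.40, and 3 had an unadjusted p under 0.05 in the higher direction (2.65% of all genes). The median was -0.51 with the code block and 1.0 without the arrays with Xist and no Y-linked gene. Mmp3, stromelysin 1, read -1.48, -1.22 and -0.32 against -1.87, -3.81 and -5.41 (2.69, unadjusted limma p 0.00345). Mmp10, stromelysin 2, read -0.02, -0.52 and 0.26 against -2.28, -0.82 and -5.31 (2.71), and Mmp13, collagenase 3, 1.16, -2.14 and -0.31 against -2.06, -1.71 and -3.31 (1.93). Mmp3 was well above background on 1 of 3 Trp53 het arrays, and with normexp background its difference was 1.03. Timp3, a metalloproteinase inhibitor named after its value was seen, was the third of 25 matrix genes above in every array (0.81), against 2.67% of all genes.

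Since tamoxifen differs between the groups, the genes known to respond to oestrogen and tamoxifen are given on their own. Of 20 tested, 10 were above 0 and the median was 0.04. 3 had an unadjusted p under 0.05 (4.87% of all genes), in both directions: Ckb, brain creatine kinase, 4.0, 4.75 and 0.22 against 0.50, 1.18 and 0.78 (2.17); Tff1, a trefoil peptide, 3.0, 2.90 and 1.96 against 1.87, -1.98 and 0.70 (2.42); and Ramp3, a receptor partner, 1.79, 2.33 and 2.74 against 5.13, 4.17 and 2.83 (-1.75). The part of tamoxifen in any difference was not tested. Among 24 NRF2 targets and xenobiotic enzymes the median was 0.18, and Cyp1b1, a cytochrome P450 of carcinogen metabolism, read -0.55, 1.63 and 0.90 against -0.35, -1.65 and -1.90 (1.96). Glycolysis (median -0.03), MHC (0.02) and EGFR ligand and receptor genes (0.35) had no member with an unadjusted p under 0.05.

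Against the second control, in which Cre and tamoxifen are shared and the R270H allele is absent, 2 of 17404 genes (0.0115%) passed an adjusted p of 0.05, and 770 (4.42%) had an unadjusted p under 0.05. This comparison uses the same 3 Krt5-Cre R270H arrays, so it is no independent repeat. Xaf1, an interferon-induced apoptosis gene on chromosome 11, read 4.08, 2.92 and 0.62 on Krt5-Cre R270H 1, 2 and 3 and -4.35 and -4.0 on Krt5-Cre 1 and 2. It was higher than in Krt5-Cre by 6.72 (limma adjusted p 0.0313), with 1 of the 2 Krt5-Cre arrays well above background. On the Trp53 het arrays Xaf1 read 1.95, 3.04 and 3.97, a difference of -0.45 from the recombined arrays. Rwdd3, a sumoylation enhancer, read -2.73, -2.80 and -2.73 against -0.46 and -0.06 on Krt5-Cre (-2.49, limma adjusted p 0.0217). Against Trp53 het (-2.30, -1.74 and -1.02) its difference was -1.07 with groups that lay apart (unadjusted limma p 0.0026, adjusted p 0.990). With slide as a block the count was 21, and it was 0 without Krt5-Cre R270H 1, without Krt5-Cre R270H 2 or without Krt5-Cre 2, 1 without Trp53 het 2, Krt5-Cre R270H 3 or Krt5-Cre 1, and 3 without Trp53 het 1.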

How the data were processed

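The authors deposited 1 scanner file per array, with background-subtracted spot intensity (gProcessedSignal, per the file headers), and a normalized log2 table whose centring is not given in the sources used here. Agilent Feature Extraction 9.1 and limma are named in the submitters' processing notes. From the scanner files, log2 intensity minus each array's 75th percentile was taken, without control spots and flagged outliers. Spots of a probe were averaged. 32994 of 56605 probes were named through RefSeq accessions (GRCm38.p6), and the brightest probe stood for a gene. Genes well above background on at least 2 of 22 arrays were kept (17421), and 17 with a flagged value were dropped. Groups were fitted as 8 means over 22 arrays with limma 3.58.1 (R 4.3.3; figures in Python 3.11.15), Benjamini-Hochberg adjusted over 17404 genes, threshold 0.05; the fit was tested on simulated data. Alternatives changed background, scaling, filter, probe rule, arrays, blocks and weights. Same-numbered arrays of the groups deviated with correlations of -0.14, 0.09 and 0.07, so the numbers do not pair them. Members and gene lists were chosen with earlier results of these data known. Named genes are Trp53, Krt5, Krt14, Upk2, Cdkn1a, the 10 of smallest p in each direction (predicted genes, RIKEN and clone names skipped) and up to 4 of smallest p per list; others are said to be named after their values were seen. One gene that this rule names is not reported here.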

Additional observations from a re-analysis of the deposited data

How the results depend on the processing

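No gene passed the adjusted threshold between Krt5-Cre R270H and Trp53 het under 20 of 22 alternatives. With the first part of the sample code as a block 3 genes passed (Bcas1, Pdia4 and Tmco6), and leaving out 1 array gave 0 to 1 genes, the 1 being Gm38403 without Krt5-Cre R270H 2; the cause was not tested. The replicate block gave 0 genes and 615 at an unadjusted p under 0.05, which ran from 487 (normexp) to 2027 (code block); the genes tested ran from 11028 to 22887. Against Krt5-Cre, the count of 2 became 0 with normexp, the code block or array weights, 1 with the deposited table, probe means or without the arrays with Xist and no Y-linked gene (chosen after seeing the data), 5 with the scanner block and 21 with the slide block; leaving out 1 array gave 0 to 3. The p53 target median was -0.27 within slide 1, and the smooth muscle median 0.60 with array weights. Of 2005 values of 94 genes followed under the alternatives, 25 changed sign and none passed. Cdkn1a was -0.23 with the slide block, -0.18 within slide 1, -0.20 with the scanner block, -0.92 with the code block and -0.41 to 0.70 when 1 array was left out. Rps27l was 0.067 with quantile scaling, 0.053 with the deposited table, 0.033 with probe means, 0.037 with the sex label, 0.21 with the code block, 0.027 with array weights, 0.048 without the Xist arrays and -0.15 to 0.25 when 1 array was left out. Krt78 was -0.18 and Xaf1 0.070 with the slide block; Trp73 (0.067), Oas1a (0.32) and Xaf1 (1.09) turned with the code block and Zmat3 (0.21) with array weights. When 1 array was left out, Upk2 ran from -0.31 to 1.80, Trp63 from -1.03 to 0.0068 and Xaf1 from -1.22 to 0.51. Probes without a symbol (13556) gave 0 calls, 488 at an unadjusted p under 0.05 and a smallest adjusted p of 0.590. The number of arrays limits every value.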
